A study of Mus musculus with 6 samples.

Results

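The genes described here carry the names of proteins of the cytosolic ribosome, and most of them encode such a protein. They were taken from the table of counts by symbol: Rpl or Rps followed by a digit, Rpsa, Rplp0, Rplp1 or Rplp2, leaving out symbols that contain -ps (named pseudogenes) and the Rps6k kinases. The rule found 92 genes among the 43432 gene IDs of the table. Of these, 77 are core ribosomal proteins: 31 of the small subunit, 43 of the large subunit and the 3 stalk proteins. A further 8 are paralogs of core genes, 5 are other annotated copies, and 2 carry a ribosomal name without being ribosomal proteins (Rpl7l1 and Rps19bp1). The 5 other copies and the paralog Rps4l are annotated as processed pseudogenes, although their symbols do not contain -ps.

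RNA was sequenced from medullary thymic epithelial cells (mTEC), the thymic stromal cells that show self antigens to developing T cells. All mice were C57BL/6 and 4 weeks old after birth. WT stands for Copa+/+ and MUT for CopaE241K/+, with 3 libraries of each. Copa encodes a subunit of the COPI coat, which returns vesicles from the Golgi to the endoplasmic reticulum; MUT mice are heterozygous for the E241K change. Whether a library came from 1 mouse or from several is not in the labels, and the spread behind each p-value is that of these libraries, which may be technical.

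A ribosome is built from a small subunit, which reads the messenger RNA, and a large subunit, which joins the amino acids. Each core protein is needed in about the same amount, and cells make them together. Most of their messenger RNAs begin with a terminal oligopyrimidine (TOP) tract, a run of C and T bases at the first transcribed position through which mTOR signalling sets their translation. Most of these genes have also left many processed pseudogenes across the genome, so that short reads from them can match several places.

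Library totals ran from 19934513 to 23366238 counts, and 17174 to 24774 genes had at least 1 count. Mitochondrially encoded genes took between 9.14% and 21.3% of the counts. All 12 mTEC markers were present, with summed levels of 10097 to 13307 CPM (counts scaled to a common library size). Markers of thymocytes summed to 222 to 1087 CPM, and those of dendritic cells and macrophages to 581 to 1352 CPM. In bulk samples such as these, fewer cells of a type and less RNA per cell cannot be told apart. The 11 type I interferon check genes summed to 1160, 1550 and 1556 CPM in the WT libraries and 2864, 3478 and 3610 CPM in the MUT libraries, so the groups did not overlap.

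Ribosomal protein genes took a small share of each library. The share was 0.552%, 0.704% and 0.652% of the counts in WT libraries 1, 2 and 3 and 0.641%, 0.693% and 0.551% in MUT libraries 1, 2 and 3. The genotypes overlapped, with a mean share of 0.636% ± 0.0776 in WT and 0.629% ± 0.0719 in MUT (SD, n = 3 each). The difference of -0.0073 percentage points was small against that spread and ran from -0.049 to 0.031 when each library was left out. Rpl4 and Rps3 together held 22.1% to 32.6% of the counts of the 92 genes in a library. Without them the mean share was 0.457% ± 0.0258 in WT and 0.470% ± 0.0671 in MUT (SD, n = 3 each). The difference was then 0.0133 percentage points, of the other sign, and the genotypes overlapped.

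The core genes did not have equal levels. Per kilobase of transcript (CPM per kb, mean of the 6 libraries), the median core gene stood at 49.7, the quartiles were 13.7 and 109, and the highest was 326 times the lowest. Rpl4 led with 557.6 CPM per kb, and was followed by Rpl22 (460.7), Rps3 (442.0) and Rpl41 (403.3); Rpl8 stood at 290.5. These are proteins of quite different positions: Rpl4 lines the exit tunnel for the new peptide, Rps3 sits where the messenger RNA enters, and Rpl8 lies beside the catalytic centre. At the other end stood Rpl23a (1.71 CPM per kb), Rpl24 (2.29), Rpl5 (3.71) and Rps23 (4.63). Rpl23a rims the exit tunnel, Rpl24 lies on the face between the subunits and Rps23 is part of the decoding centre. Lengths are those of 1 annotated transcript per gene, and the long transcripts used for Rps20 (3706 bases) and Rps15a (5130 bases) lower their values on this scale.

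**Figure D1:**
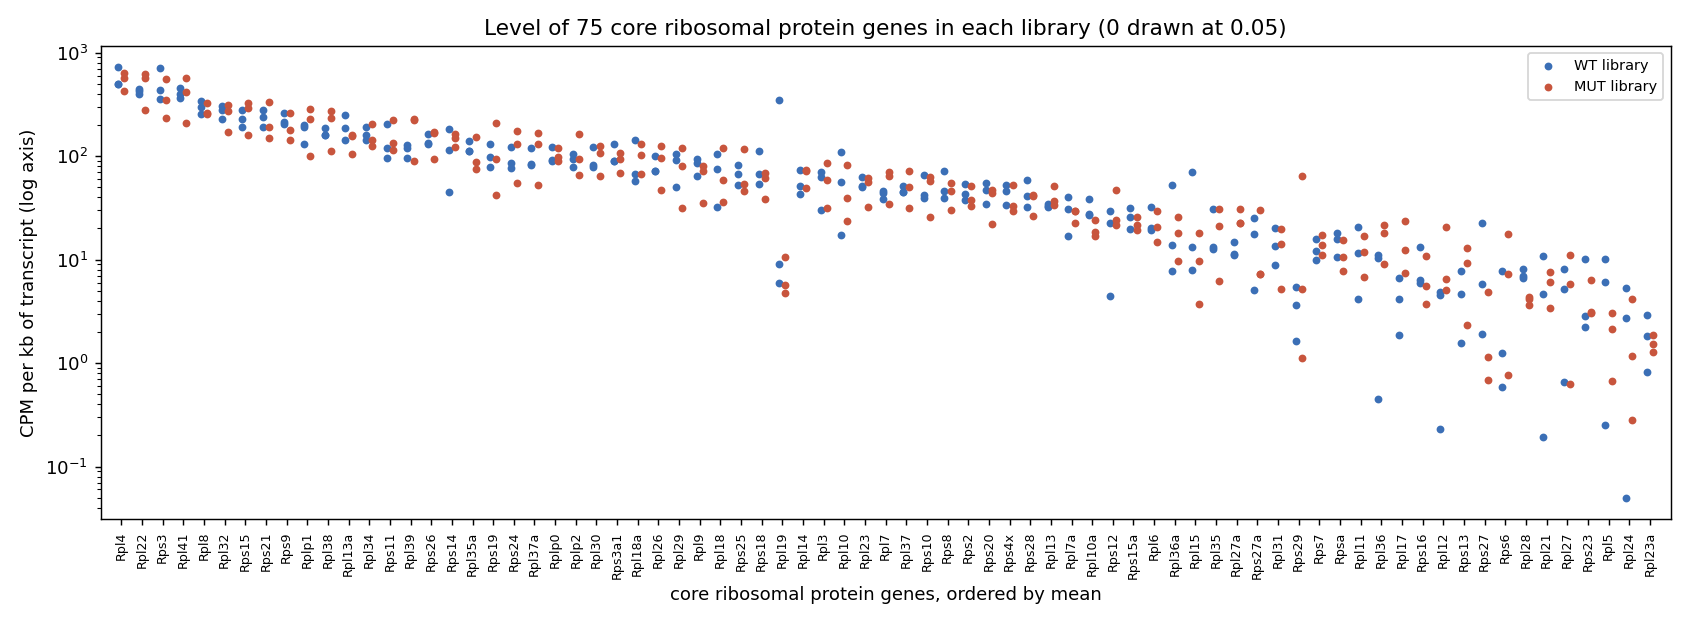
Level of each of 75 core genes in each library, in CPM per kb of transcript on a log axis, with the genes ordered by their mean; blue points are WT libraries, red points are MUT libraries, and a 0 is drawn at 0.05. Levels run from 557.6 for Rpl4 to 1.71 for Rpl23a, the libraries of a gene lie close together at the left, and they spread widely at the right. Rpl19, near the middle, and Rps29, further right, are genes with 1 library far above the rest.

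The sequence that a core gene shares with other genes differed as widely. Each transcript was cut into all its windows of 50 bases, and a window was counted as shared where an annotated transcript of another gene held the same 50 bases on either strand. The median core gene shared 56.6% of its windows, against a median of 0 over the 17084 tested genes with a transcript. At least 50% of the windows were shared in 61.0% of core genes and in 3.96% of tested genes. Rps3 (2.96%) and Rpl8 (7.86%) shared few. Rps27 (98.6%), Rpl5 (93.8%), Rpl9 (93.3%) and Rps12 (90.1%) were shared almost throughout. The 30 core genes with under 50% shared had a median of 108.6 CPM per kb (5.67 to 557.6), and the 47 others had a median of 28.4 (1.71 to 189.1). Across the 77 core genes, level per kb and shared percentage had a Spearman correlation of -0.54, and of -0.65 with windows of 100 bases. Counting reads only over unshared windows was not possible from the table. Dividing each gene's CPM by its number of unshared windows gave a correlation of -0.12 over the 73 genes with at least 50 such windows. This divisor falls as the shared percentage rises, which by itself raises such a correlation, so nothing is concluded from it. Rps27, Rpl9, Rpl35 and Rps12, shared almost throughout, had too few such windows and were left out of it. The points of these correlations share the same 6 libraries, and genes are not independent replicates. The part of reads with several matches in the levels was not tested.

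**Figure D2:**
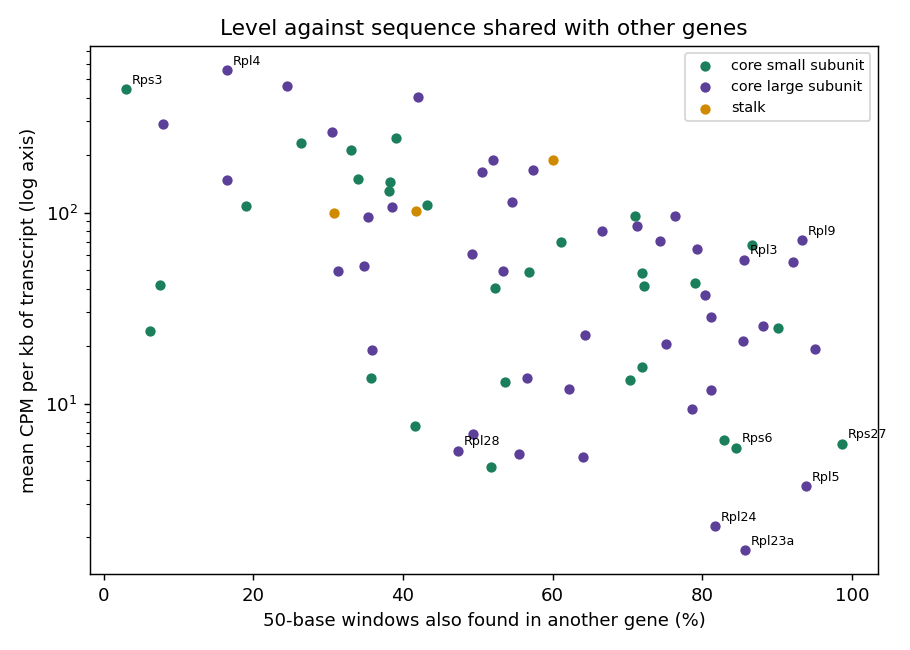
Mean CPM per kb of transcript (log axis) of 75 core genes against the percentage of their 50-base windows found in another gene; colours mark small subunit, large subunit and stalk genes. Rps3 and Rpl4 lie at the upper left, and Rpl23a, Rpl24, Rpl5 and Rps27 at the lower right, while Rpl9 and Rpl28 are genes that leave this diagonal.

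Rps27 shows how far this sharing goes. Rps27 is a zinc-binding protein of the small subunit; Rps27rt is a retrotransposed copy of it on chromosome 9, and Rps27l is a separate gene, known as a target of p53. On GRCm38, Rps27 lies at 3:90212522-90213651 (minus strand), Rps27rt at 9:114982366-114982739 (minus strand) and Rps27l at 9:66946086-66949516 (plus strand). The coding sequences have 255 bases each. The first 90 bases of each are shown because they decide which counts can be told apart, and capitals mark the bases at which a gene differs from Rps27:
Rps27: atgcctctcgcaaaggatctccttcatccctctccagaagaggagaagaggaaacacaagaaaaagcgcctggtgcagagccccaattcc
Rps27rt: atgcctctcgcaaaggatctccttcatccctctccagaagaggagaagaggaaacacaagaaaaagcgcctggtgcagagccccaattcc
Rps27l: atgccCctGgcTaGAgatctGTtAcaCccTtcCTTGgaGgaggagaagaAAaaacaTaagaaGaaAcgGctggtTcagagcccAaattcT
Rps27 and Rps27rt had 0 differences over the whole coding sequence, while Rps27l differed from Rps27 at 61 of 255 bases, 24 of them in the stretch shown. Rps27 stood at 7.76, 0.659 and 2.03 CPM in WT libraries 1 to 3 and at 0.236, 1.68 and 0.398 CPM in MUT libraries 1 to 3. Rps27rt was between 0.217 and 1.58 CPM in every library, and Rps27l, with 22.4% of its windows shared, was between 24.1 and 55.8 CPM. Reads of Rps27 and Rps27rt that lie within the coding sequence cannot be told apart. How such reads were counted is not given, so each level may include reads of the other gene or leave out its own.

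Runs of C and T bases were looked for around the start sites of these genes. Promoter sequences from RefSeq (GRCm38.p6, 300 bases per start) matched 67 of the 92 genes, with 79 starts. In the 40 bases around the start, 8 or more C or T bases stood in a row on the gene strand at 31 of the 79 starts (39.2%), against 16.05% of all 32851 starts in the table. The letters CTTTCC lay on the gene strand in 12 of the 79 (15.2%), against 1.95% of all starts. On either strand, CTTTCC or its reverse complement GGAAAG was found in the 300-base window of 40 starts (50.6%), against 26.6% of all. The letters CCGGAAG or CTTCCGG, a form of the ETS factor site that shares the letters GGAA with the first motif, were found in 27 (34.2%), against 8.86%. A match is a description of letters and not a shown binding site. Windows of 30 bases, from 10 before the start to 20 from it on, are shown for 6 genes to show where these letters lie, with CTTTCC in capitals. Counted from 1 at the annotated start, CTTTCC begins at position 1 in Rpl38 and Rps27rt, 2 in Rps27, 3 in Rpl28, 5 in Rpl15 and 10 in Rpl13a. In the last 4 CTTTCC itself does not begin at the first transcribed position of the annotation. In Rps27, Rpl28 and Rpl15 all bases from position 1 up to it are C or T, while Rpl13a has a G at position 1. The windows were chosen after the motif was found in them, and Rps27 and Rps27rt are included for the identity described above:
Rpl13a, chr7:45128726-45128755, minus strand: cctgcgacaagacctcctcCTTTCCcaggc
Rpl15, chr14:18270967-18270996, minus strand: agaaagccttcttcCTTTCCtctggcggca
Rpl28, chr7:4792955-4792984, plus strand: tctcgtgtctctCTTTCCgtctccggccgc
Rpl38, chr11:114668570-114668599, plus strand: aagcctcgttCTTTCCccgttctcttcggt
Rps27, chr3:90213629-90213658, minus strand: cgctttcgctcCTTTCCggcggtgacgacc
Rps27rt, chr9:114982720-114982749, minus strand: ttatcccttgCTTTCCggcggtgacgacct
In Rps27 and Rps27rt the letters after CTTTCC are the same, and those before it are not. The genes shown cover a wide range of counts, from a mean of 175 CPM for Rpl13a to one of 0.843 CPM for Rps27rt.

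The comparison of the genotypes asked whether transcripts of the ribosome differ in mTEC with the E241K allele. Of the 92 genes, 85 passed the filter on low counts and were tested; the 7 left out were Rpl3l, Rpl10l, Rpl39l, Rpl6l, Rps12l1, Rps3a2 and Rps3a3, each with at most 1.27 CPM in any library. By edgeR's quasi-likelihood test, 0 of these 85 genes had an adjusted p under 0.05, and so had 0% of the 17172 genes tested. At an unadjusted p under 0.05, 1 of the 85 was found, against 3.48% of all genes: Rpl19 was lower (1.85% of all genes) and none was higher (1.62%). With no filter on low counts edgeR called 0 of the 92 genes, against 0.253% of all, and with the replicate number as a block it called 0 of the 85, against 0.00582%. DESeq2 called 0 of these genes at an adjusted p of 0.05, against 0.621% of all genes, and had 3 at an unadjusted p under 0.05 (Rpl17, Rpl27a and Rps29), against 5.99% of all. On data simulated for this comparison over 17172 genes, edgeR recovered 8.67% of genes changed 4-fold and 33.7% of those changed 16-fold. The changed genes were drawn from all genes tested, whose median standard error was 1.03, against 0.58 in the ribosomal protein genes. These rates are therefore not those of the ribosomal protein genes. What a count of 0 leaves room for differs by gene, and the intervals given below show it.

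The fitted differences lay on both sides of 0. The log2 fold change, MUT minus WT, was above 0 in 41 of the 85 genes and below 0 in 44, and its median was -0.03 (quartiles -0.25 and 0.23). Over all genes tested, 49.4% were above 0 and the median was -0.01 (quartiles -0.62 and 0.64). The absolute log2 fold change had a median of 0.24 in the ribosomal protein genes and 0.63 over all genes, and the standard error (SE) a median of 0.58 against 1.03. An absolute value under 1 was found for 74 of the 85 (87.1%), against 67.1% of all genes. A 95% interval that lay wholly within a 2-fold change in both directions was found for 7 of the 85 (8.24%), against 3.7% of all genes. Among these were Rpl4, Rpl8, Rpl41, Rpl32, Rps26 and Rplp0; intervals outside this group reached a 2-fold difference in at least 1 direction. The genotypes did not overlap in 5 of the 85, against 9.35% of all genes. MUT was above WT in 3 of them (5.39% of all genes) and below WT in 2 (3.96%).

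**Figure D3:**
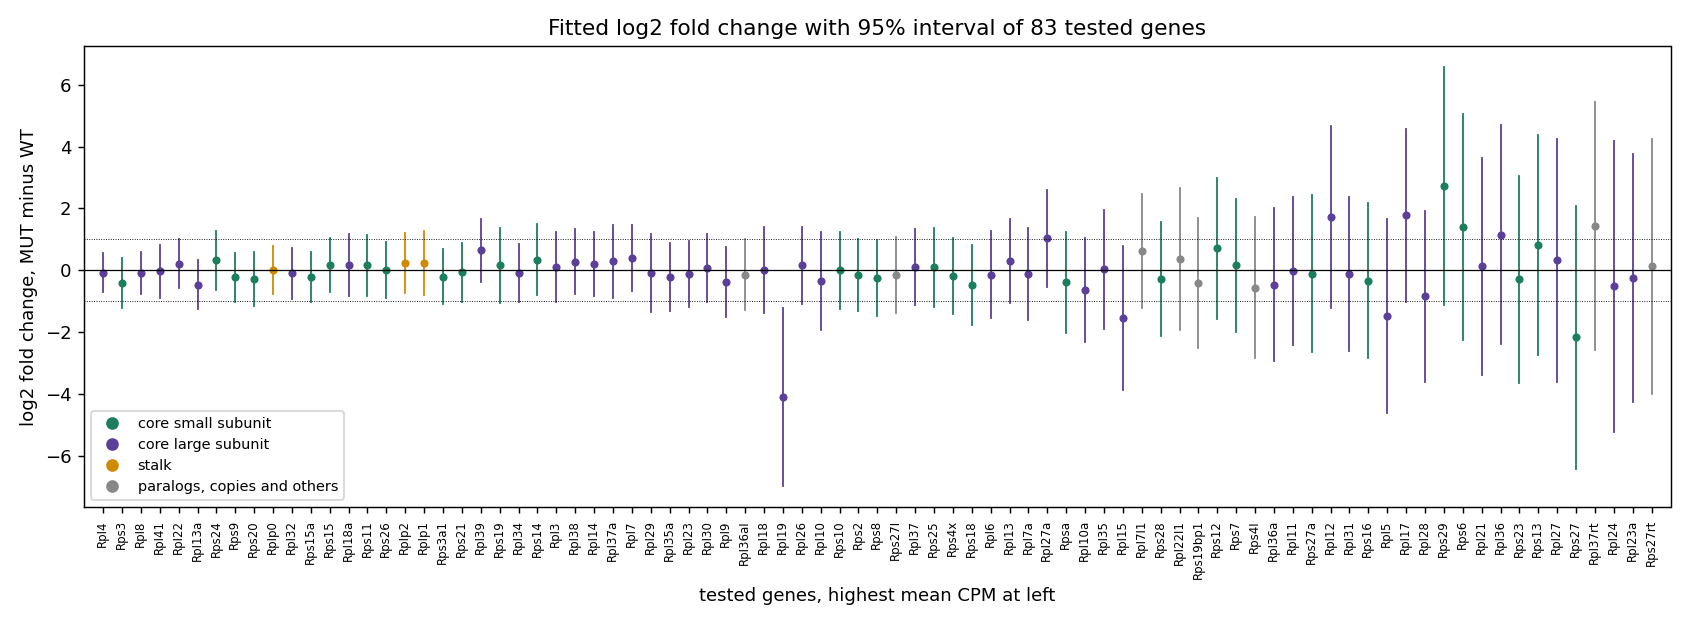
Fitted log2 fold change, MUT minus WT, with its 95% interval for 83 tested genes, ordered by mean CPM from the highest at the left; dotted lines mark a 2-fold change and colours mark the class. Intervals widen from left to right, points on the left stay between -0.46 and 0.65, and Rpl19 at -4.11 is the 1 gene whose interval leaves out 0.

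The precision followed the level. Among the 35 core genes with a mean of at least 50 CPM, the log2 fold change ran from -0.46 to 0.65 with a median of 0.01, and a gene's highest library was a median of 2.31 times its lowest. Among the 42 below 50 CPM it ran from -4.11 to 2.73 with a median of -0.11, and the highest library was a median of 3.9 times the lowest, leaving out a gene with a 0. All 7 intervals within 2-fold belonged to the first group. They also belonged to the 30 core genes with under 50% of their windows shared.

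The median log2 fold change of the small subunit was -0.10, with 14 above and 17 below 0. Rps3 was measured at 684, 1369 and 834 CPM in WT libraries 1 to 3 and at 444, 1055 and 673 CPM in MUT libraries 1 to 3. The libraries numbered 2 were the highest of each genotype, the genotypes overlapped, and the log2 fold change was -0.41 (SE 0.37). Rps19, the gene most often mutated in Diamond-Blackfan anaemia, ran from 61.5 to 102 CPM in WT and from 32.4 to 163 CPM in MUT. Both the lowest and the highest library were MUT, and the log2 fold change of 0.16 (SE 0.56) became -0.60 without MUT library 2.

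Rps14, whose loss in humans is linked to a form of myelodysplastic syndrome, stood at 26.9, 109.5 and 68.1 CPM in WT and 98.2, 88.5 and 73.6 CPM in MUT. Its log2 fold change of 0.35 (SE 0.53) was -0.03 without WT library 1, the library with the lowest value. Rps18, of the small subunit's head, stood at 63.5, 37.9 and 30.0 CPM in WT and 34.8, 38.5 and 21.7 CPM in MUT, with a log2 fold change of -0.47 (SE 0.60) that was -0.10 without WT library 1. Rpsa, also known as the laminin receptor, was at 16.8 to 29.1 CPM in WT and 12.3 to 25 CPM in MUT, and its log2 fold change was -0.39 (SE 0.75).

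Several small subunit genes had few counts that moved from library to library. Rps6, the protein that the S6 kinases phosphorylate, was at 1.09, 0.518 and 6.87 CPM in WT and 15.4, 0.671 and 6.43 CPM in MUT. The libraries numbered 2 were the lowest of each genotype, and the log2 fold change of 1.40 (SE 1.67) ran from 0.33 to 3.21 when each library was left out. Rps29, a zinc-binding protein, had 11, 45 and 32 counts in WT and 43, 527 and 12 counts in MUT. MUT library 2 alone stood out, and the log2 fold change of 2.73 (SE 1.76) was -0.17 without it. Rps23 was at 9.54, 2.68 and 2.11 CPM in WT and 2.83, 5.99 and 2.89 CPM in MUT, and its log2 fold change of -0.29 (SE 1.54) was 0.70 without WT library 1. For Rps27, whose values are given with its sequence, the log2 fold change of -2.17 (SE 1.95) was -0.80 without WT library 1.

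In the large subunit the median was -0.03, with 20 above and 23 below 0. Rpl4 (9:64173375-64178666) was measured at 769.7, 1109 and 767 CPM in WT libraries 1 to 3 and at 971, 870.1 and 658 CPM in MUT libraries 1 to 3. The genotypes overlapped, and the log2 fold change of -0.08 (SE 0.29) had a 95% interval of -0.71 to 0.54. Rpl8 was the steadiest of these genes, at 254, 291 and 218 CPM in WT and 276, 225 and 219.7 CPM in MUT; its highest library was 1.33 times its lowest, and the interval of its log2 fold change was -0.76 to 0.59. Rpl22, which developing T cells need and which binds RNA outside the ribosome, stood at 189.6, 213 and 204 CPM in WT and 272, 297 and 134 CPM in MUT. Its WT libraries were close together, its MUT libraries lay on both sides of them, and the log2 fold change was 0.21 (SE 0.36). Rpl41, the smallest ribosomal protein, ranged from 197.6 to 249 CPM in WT and from 113 to 308 CPM in MUT, with a log2 fold change of -0.03 (SE 0.39).

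Rpl13a takes part in the interferon-gamma-activated silencing complex outside the ribosome. It stood at 195.7, 264 and 149 CPM in WT and 169, 165 and 109 CPM in MUT. MUT library 3 was below every WT library and the other MUT libraries were within their range, and the log2 fold change of -0.46 (SE 0.37) had an interval of -1.26 to 0.34. Rpl39, a small protein of the exit tunnel, was at 58.7, 73.3 and 79.4 CPM in WT and 136, 139.7 and 54.7 CPM in MUT. MUT libraries 1 and 2 lay above every WT library and MUT library 3 below them, with a log2 fold change of 0.65 (SE 0.46). Rpl5 and Rpl11 carry the 5S RNA into the large subunit and, when free, bind Mdm2. Rpl5 was at 20.5, 0.518 and 12.4 CPM in WT and 1.37, 4.41 and 6.29 CPM in MUT, and its log2 fold change of -1.47 (SE 1.44) ran from -2.05 to -0.70 when each library was left out. Rpl11 was at 3.5, 9.65 and 17.1 CPM in WT and 9.76, 5.60 and 14.2 CPM in MUT, with a log2 fold change of -0.03 (SE 1.10).

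The 5 genes whose genotypes did not overlap were all of the large subunit. Rpl27a (7:109519147-109522367) was at 13.3, 12.9 and 17.2 CPM in WT and 35.7, 26.4 and 26.4 CPM in MUT. Every MUT library was above every WT library; the log2 fold change was 1.03 (SE 0.71), 0.87 to 1.17 when each library was left out. The adjusted p of Rpl27a was 0.999875 with edgeR and 0.397 with DESeq2. Rpl17, which lines the exit tunnel, was at 1.44, 3.25 and 5.11 CPM in WT and 18.3, 5.75 and 9.50 CPM in MUT. Its log2 fold change of 1.78 (SE 1.28) ran from 1.22 to 2.25 when each library was left out, and DESeq2 gave an adjusted p of 0.47. Rpl12, at the base of the stalk, was at 0.287, 6.08 and 5.63 CPM in WT and 6.37, 25.5 and 7.99 CPM in MUT. Its groups were separated by a narrow gap, and the log2 fold change of 1.73 (SE 1.35) was 0.83 without MUT library 2.

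The other pair had MUT below WT. Rpl28 (7:4792874-4795066) was at 9.08, 7.68 and 7.39 CPM in WT and 4.81, 4.02 and 4.63 CPM in MUT, and its log2 fold change of -0.84 (SE 1.27) ran from -0.90 to -0.75 when each library was left out. These libraries were close together within each genotype, while the SE that the fit gives a gene of this level was larger than the difference. Rpl10a (17:28328471-28331033), of the mobile stalk at the exit site for transfer RNA, was at 19.5, 19.97 and 27.9 CPM in WT and 13.6, 17.5 and 12.2 CPM in MUT, with a log2 fold change of -0.63 (SE 0.77). It shares 88.1% of its windows, and its value together with its named pseudogenes is given among the other observations.

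Rpl19 (11:98026710-98030492), which forms a bridge to the small subunit, had the lowest unadjusted p of the 85 genes. It had 4553, 146 and 101 counts in WT and 75, 168 and 117 counts in MUT. WT library 1 stood at 262 CPM and the other 5 libraries between 3.54 and 8.05 CPM, so the genotypes overlapped. The log2 fold change of -4.11 (SE 1.32, unadjusted p = 0.00908, adjusted p = 0.999875, edgeR) was -0.10 without WT library 1; DESeq2 gave this gene no p. Rpl15 had the same order: WT library 1 stood at 56.5 CPM and the others between 3.02 and 14.6 CPM, and the log2 fold change of -1.53 (SE 1.07) was -0.00 without it. WT library 1 was also low where other libraries were not, with 0 counts of Rpl24, 3 of Rpl21, 3 of Rpl36 and 5 of Rpl12. It was the lowest library by over 2-fold for 8 of the 85 genes, against 16.6% of all genes tested, and the highest by over 2-fold for 4, against 7.76% of all genes. Rpl24, a protein of the face between the subunits, was at 0, 3.63 and 1.85 CPM in WT and 2.83, 0.192 and 0.795 CPM in MUT. Rpl23a had 0.460 to 1.65 CPM in WT and 0.723 to 1.04 CPM in MUT, and intervals of both genes spanned more than 4-fold in each direction.

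The stalk recruits the translation factors to the ribosome. Rplp0, its base, was at 121, 166 and 125 CPM in WT and 122, 163 and 133 CPM in MUT; the groups overlapped and the log2 fold change was 0.02 (SE 0.36, interval -0.76 to 0.79). Rplp1 was at 99.8, 94.6 and 65.4 CPM in WT and 113, 143 and 49.9 CPM in MUT, and Rplp2 at 75.1, 101 and 89.9 CPM in WT and 90.1, 159 and 63.2 CPM in MUT. MUT library 2 was the highest and MUT library 3 the lowest for both, and the log2 fold changes of 0.24 (SE 0.47) and 0.23 (SE 0.45) were -0.09 and -0.22 without MUT library 2.

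The paralogs tested had a median log2 fold change of -0.14, with 2 above and 3 below 0. Rpl22l1, the paralog of Rpl22, was at 18.6, 7.68 and 10.4 CPM in WT and 2.97, 35.1 and 9.32 CPM in MUT; its log2 fold change of 0.37 (SE 1.06) was -1.01 without MUT library 2. Per kb, Rpl22 stood at 460.7 CPM and Rpl22l1 at 25.4 CPM, so the core gene was the higher of the pair by these counts. Rpl22 shares 24.5% of its windows with other genes and Rpl22l1 shares 65.6%, and the part of this in the difference was not tested. Rpl36al, a close copy of Rpl36a, was at 34.7 to 71.9 CPM in all libraries (log2 fold change -0.14, SE 0.53) and, per kb, at 95.6 CPM against 21.3 CPM for Rpl36a. The copies share 63.3% and 85.5% of their windows with other genes, so their counts are uncertain. Rps27l (log2 fold change -0.14, SE 0.56) and Rps4l (log2 fold change -0.56, SE 1.05; 5.42 to 21.4 CPM) overlapped between genotypes as well. Rps27rt had a log2 fold change of 0.13 (SE 1.89). The testis paralogs Rpl10l and Rpl39l and the muscle paralog Rpl3l had 34, 1 and 11 counts over all libraries. Among the other copies, Rpl37rt was tested at 0.706 to 4.53 CPM (log2 fold change 1.43, SE 1.84). Rpl7l1, an assembly factor of the large subunit, was at 14.2, 13.3 and 10.5 CPM in WT and 28.9, 16.3 and 13.4 CPM in MUT, with a log2 fold change of 0.63 (SE 0.84). Rps19bp1, a partner of Rps19 and of Sirt1, was at 7.39 to 20.9 CPM in WT and 7.42 to 14.2 CPM in MUT, with a log2 fold change of -0.41 (SE 0.96).

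Many core genes were high or low in the same libraries. The mean log2 CPM of the 77 core genes was 4.70, 5.01 and 4.87 in WT libraries 1 to 3 and 4.92, 5.16 and 4.64 in MUT libraries 1 to 3. Both libraries numbered 2 were the highest of their genotype, and MUT library 3 was the lowest of all. The same libraries were highest and lowest for the 35 core genes with a mean of at least 50 CPM, but WT libraries 1 and 3 changed places. Their means were 6.73, 6.98 and 6.66 for WT libraries 1 to 3 and 6.85, 7.17 and 6.29 for MUT libraries 1 to 3. For the 42 below 50 CPM WT libraries 1 to 3 had means of 3.01, 3.37 and 3.37 and MUT libraries 1 to 3 had means of 3.31, 3.49 and 3.27, so that WT library 1 was the lowest and WT libraries 2 and 3 were level. Among the 85 genes, 28 had their highest value in MUT library 2 and 25 in WT library 2, whereas 37 had their lowest value in MUT library 3. Over all genes tested, 19.1% and 18.5% were highest in those libraries and 6.87% lowest in MUT library 3. The CPM of the small subunit genes divided by that of the large subunit genes gave 0.778, 0.831 and 0.80 for WT libraries 1 to 3 and 0.651, 0.798 and 0.785 for MUT libraries 1 to 3, with MUT library 1 the lowest. This ratio depends strongly on Rps3, which was also highest in WT library 2 and lowest in MUT library 1. Rps3 held 1369 of 3362.5 small subunit CPM in WT library 2 and 444 of 2474 in MUT library 1. The ratio is therefore not read as a difference between the subunits.

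**Figure D4:**
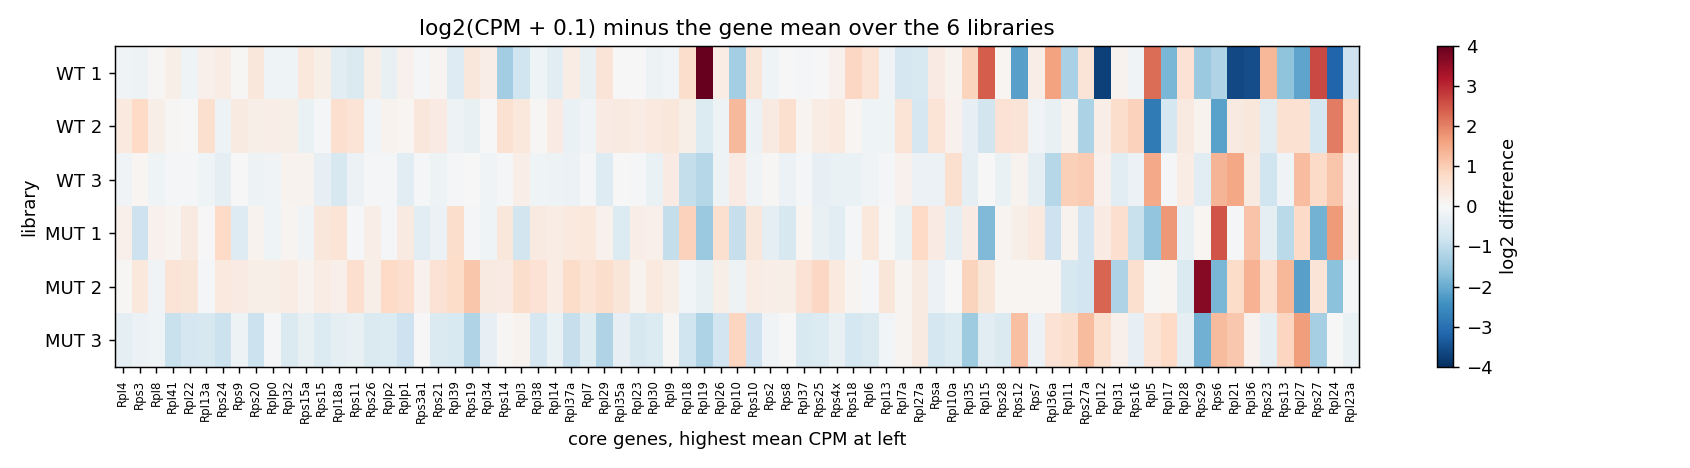
Difference of log2(CPM + 0.1) from the gene's mean over the 6 libraries, for 75 core genes ordered by mean CPM from the left; red is above and blue below the mean. Most genes on the left are above their mean in the libraries numbered 2 and below it in MUT library 3. Single cells of strong colour stand out from the middle on, such as Rpl19 in WT library 1 near the middle and Rps29 in MUT library 2 on the right.

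Some marker lists had the same order of libraries and others did not. The 15 thymocyte markers summed to 446, 835 and 345 CPM in WT libraries 1 to 3 and 322, 1087 and 222 CPM in MUT libraries 1 to 3, with Rag2 and Ptcra at 0 in at least 1 library. The 12 dendritic cell and macrophage markers summed to 746, 1352 and 701 CPM in WT and 694, 1277 and 581 CPM in MUT. Both sums were highest in the libraries numbered 2 and lowest in MUT library 3, as was the mean of the core genes. The sum of 12 mTEC markers had this order, at 11247, 13307 and 10676 CPM in WT and 10194, 11843 and 10097 CPM in MUT. H2-Aa held a large part of it, at 5557, 9619 and 6153 CPM in WT and 6101, 7940 and 5935 CPM in MUT. Not every marker had this order: Fezf2 and Krt5 were lowest of each genotype in the libraries numbered 2, and Cldn3 was highest there. The mitochondrial share was also highest in the libraries numbered 2 (18.9% and 21.3%). It was lowest in MUT library 3 (9.14%), where the most genes were detected (24774). The 9 fibroblast and endothelium markers summed to 1823 to 3084 CPM in WT and 1286 to 1788 CPM in MUT, without overlap. Their sum was highest in WT library 1 and lowest in MUT library 2. Rgs5 alone held most of it, at 1626 to 2955 CPM in WT and 1096 to 1685 CPM in MUT, with overlap. By log2 fold change, 5 of the 9 genes were above 0 and 4 below (median 0.26). B cell markers summed to 24.1, 47.7 and 49.3 CPM in WT and 22.03, 82.8 and 27.4 CPM in MUT. Cortical epithelium markers summed to 795, 733 and 628 CPM in WT and 696, 834 and 634 CPM in MUT, so that neither list was highest in WT library 2. The part of other cells, of mitochondrial reads and of the number of genes detected in the ribosomal protein levels was not tested. Counted without the mitochondrially encoded genes, the share of ribosomal protein genes differed by -0.0051 percentage points between genotypes.

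**Figure D5:**
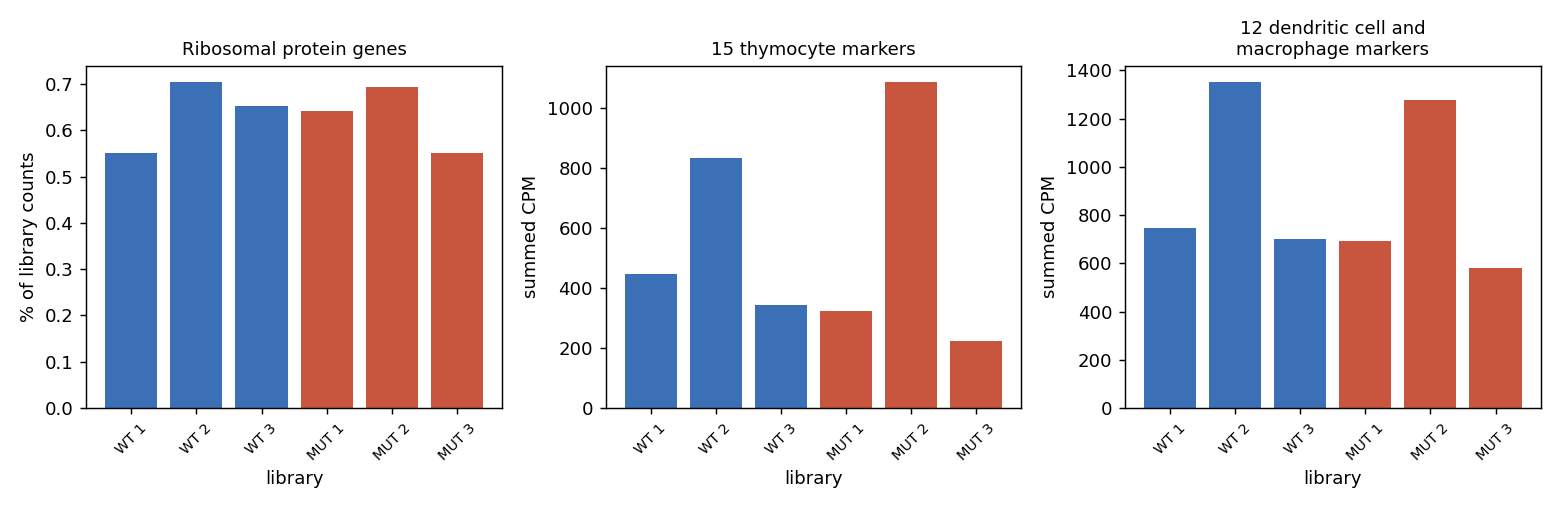
Share of counts taken by the 92 ribosomal protein genes (left, in %), and summed CPM of 15 thymocyte markers (middle) and of 12 dendritic cell and macrophage markers (right) in each library; blue bars are WT, red bars MUT. In all panels the libraries numbered 2 are the highest of their genotype, at 0.704% and 0.693% for the ribosomal protein genes.

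Other genes of translation also had no call in edgeR (0 of the genes in each list below). Of 17 elongation factors and other genes with TOP messenger RNAs, 9 were above and 8 below 0 (median 0.04). Eif4b, a helper of the initiation helicase, was at 124, 202 and 176 CPM in WT and 258, 324 and 216 CPM in MUT. These groups did not overlap, and the log2 fold change was 0.67 (SE 0.34). Of 27 initiation factors, 9 were above and 18 below 0 (median -0.17). Eif2s2, a subunit of the factor that brings the initiator transfer RNA, was at 392, 146 and 152 CPM in WT and 80.8, 104 and 80.6 CPM in MUT. The MUT libraries were all lower, WT library 1 stood far above its group, and the log2 fold change was -1.38 (SE 0.44, unadjusted p = 0.00918, adjusted p = 0.999875, edgeR).

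Of 47 tested genes of ribosome biogenesis, 26 were above and 21 below 0 (median 0.16). This list also holds Rpl7l1 and Rps19bp1, which the symbol rule had taken and which are described above. Nip7, which takes part in the making of the large subunit, was at 5.46, 10.8 and 13.4 CPM in WT and 29.2, 78.4 and 29.3 CPM in MUT. The groups did not overlap, and the log2 fold change was 2.21 (SE 0.75, unadjusted p = 0.0124, adjusted p = 0.999875, edgeR). Of 13 regulators of these genes, 8 were above and 5 below 0 (median 0.14); Rheb, the activator of mTOR, was at 142, 45.3 and 45.7 CPM in WT and 26.1 to 33.9 CPM in MUT, with no overlap and a log2 fold change of -1.38 (SE 0.59). Of 6 host genes of small nucleolar RNAs, 1 was above and 5 below 0 (median -0.13). The 76 tested mitochondrial ribosomal protein genes had 35 above and 41 below 0 and a median of -0.14. Mrpl50 was at 52.5, 53.7 and 28.3 CPM in WT and 8.44, 9.48 and 12 CPM in MUT, with no overlap and a log2 fold change of -2.17 (SE 0.68, unadjusted p = 0.00805, adjusted p = 0.999875, edgeR). The median absolute log2 fold change was 0.49 in the mitochondrial genes and 0.24 in the cytosolic ones, beside median SEs of 0.94 and 0.58. Differences between these lists were not tested.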

How the data were processed

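The authors deposited raw counts per Ensembl gene ID for 6 mTEC libraries, with no normalization. Per the labels' protocols, cDNA was made by Nugen Ovation amplification and libraries with Nextera XT; no molecular identifiers are described, so amplified reads are not independent molecules. The build GRCm38 and the programs STAR 2.4.2a and DESeq2 1.26.0 are named in the submitters' processing notes. How reads were counted (program, annotation, strand, reads with several matches) is not given in the sources used here. Of 43432 IDs, 42462 were matched to a symbol; gene coordinates come from GENCODE M21 on the same build.

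MUT was compared with WT by edgeR 4.0.16 in R 4.3.3 (TMM, filterByExpr, robust quasi-likelihood F-test, genotype as the only term) over 17172 genes, with Benjamini-Hochberg adjustment over all of them. CPM values use TMM-scaled library sizes. The level per kb divides CPM by the length of 1 principal transcript. Intervals are 95% intervals of the fit. The test was run on simulated data in 3 simulations, where edgeR made 4 calls in all among unchanged genes. Alternatives were DESeq2 1.42.0, limma 3.58.1 (voom), other size factors and filters, mitochondrial genes left out, pseudogene counts added, an adjusted p of 0.1, the replicate number as a block, and each library left out in turn.

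Members and lists were chosen with earlier results of these data known, so no set test was run and no p was adjusted over a list alone. Named genes were taken by rule: the 6 highest and 4 lowest core genes per kb, the 5 with the smallest p in each subunit list, the stalk, the tested paralogs and non-ribosomal genes, the largest changes at a mean of at least 5 CPM, genes known for other roles, and the smallest p in each other list. Genes outside it, such as Rps12 and Rpl9, were chosen after their values were seen. The list symbols Riok2, Znf598, Gcn1, Snhg1, Snhg4 and Snhg8 had no match. No 2 libraries agreed within sampling noise (lowest chi-square per degree of freedom 84.4). Some genes are not reported here by name and were left out of the plots, but they remain in the counts and medians.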

Additional observations from a re-analysis of the deposited data

How the results depend on the processing

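No ribosomal protein gene was called in any setting. The lowest adjusted p among them was 0.0502, for Rpl19 with edgeR and no filter on low counts. Their median log2 fold change ran from -0.08 to 0.00 over the settings that kept all libraries and from -0.21 to 0.11 when each library was left out. Over all genes edgeR called 0, and 73 with no filter (31 higher, 42 lower) and 1 with the replicate number as a block; DESeq2 called 116. The median of all genes moved from -0.01 to 0.16 with no filter and to 0.15 in DESeq2, where the medians of the ribosomal protein genes were 0.00 and -0.01. Of 37 named genes, 17 kept the sign of their log2 fold change in every setting, and 30 kept it in every setting that kept all libraries; limma-voom turned 5 and the block 4. Of the 42 core genes under 50 CPM, 0 had an interval within 2-fold; how much of their spread is counting error was not tested.

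Libraries with the same number correlated in their deviations from the group means by 0.1002, 0.059 and 0.127. These values are low, but each of the 6 libraries correlated best with the library of its own number in the other genotype. The labels give same-numbered libraries a shared ending in the source name without saying what it means. For this reason the number was not treated as a pairing in the main fit, and a pairing is not excluded. With the replicate block the ribosomal protein genes had 0 calls, a median of -0.08 and a lowest adjusted p of 0.999964.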

Other observations

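Rows with a named pseudogene symbol (-ps) held few counts beside their parent genes: 57 of the 92 genes had such rows, 63 of the rows were at 0, and together they held 8269 counts against 826961 for the 92 genes. For 6 parent genes they held more than 20 counts for every 100 of the parent. Rpl10a had 2392 counts of its own and 2205 in 2 pseudogene rows. Rpl10a-ps2 held 1110 counts in WT library 2, 1 in WT library 1 and 57 to 183 in the other 4, so that most of its counts came from 1 library. Summed with these rows, Rpl10a had a log2 fold change of -0.94 (SE 0.65). Rpl31, whose protein rims the exit tunnel, had 1130 counts of its own and 875 over 21 pseudogene rows, and its summed log2 fold change was -0.02 (SE 0.87). Rps12 had 1723 counts and 494 over 22 rows, 222 of them in WT library 1 and 160 in MUT library 1 but 18 to 38 in each other library; Rps12 itself was lowest in WT library 1, at 2.18 CPM. Rps6 had 214 counts over 4 rows, 120 of them in MUT library 1, the library in which Rps6 was highest. These genes were chosen after their values were seen.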
